A study of Drosophila sechellia with 6 samples.

Results

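The vitelline membrane is the inner layer of the insect eggshell, and 8 genes of *Drosophila sechellia* grouped as vitelline membrane genes are described here. Somatic follicle cells that surround the growing oocyte secrete its proteins as small bodies, which fuse into a continuous layer and are later cross-linked. In *D. melanogaster* these genes are switched on in mid-oogenesis, before the chorion genes of the outer eggshell, and the finished layer also holds cues that pattern the embryo. The members were the genes listed as orthologs of *Vm26Aa*, *Vm26Ab*, *Vm26Ac*, *Vm32E*, *Vml*, *psd*, *Fcp3C* and *CG13992*, and all 8 of them were found among the 17273 genes of the table.

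The series asked how the expression of this fruit specialist changes when it eats its host fruit, *Morinda citrifolia* or noni. Whole adult females of strain 14021-0428.25, aged 0 to 3 days, were given instant *Drosophila* food with 1 g of rotten noni pulp for 24 h, and the control flies had the same food without pulp for the same time. Before that, all flies were raised on cornmeal at 20 °C with 16 h of light and 8 h of darkness. Each diet had 3 libraries of 10 pooled flies. The table holds 1 pooled FPKM value (fragments mapped, scaled for the length of the transcript and the size of the library) per gene and diet, and no value of a single library. The authors' own test in the table was not used, and pooled values allow no SD, interval or new test. The number of reads behind each value is unknown, and every difference below is a difference between 2 pooled values whose spread between libraries was not measured here. Because whole flies were used, more egg chambers with vitelline-stage follicle cells and more RNA per follicle cell cannot be told apart.

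All 8 members had a higher FPKM on noni than on control food. For comparison, 55.1% of the 11860 genes that averaged at least 1 FPKM over both diets were higher on noni. The log2 ratio of noni to control ran between 0.11 for *Vm26Ac* and 0.77 for *Vm32E*, with a median of 0.43, and the median over all these genes was 0.04. At least 25% more FPKM on noni was found for 7 members, against 18.9% of all genes, and a ratio of at least 1.5 by 2 members, *Vm32E* and *Vml*, against 5.96% of all genes. No member reached a ratio of 2, which 2.07% of all genes did. No member was lower on noni. The members had been named through lists of genes responding to L-DOPA (6 genes), octanoic acid (OA, 1) or noni (1, *Vm32E*). All genes are therefore not a set chosen in the same way, and these shares are a description.

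Summed over the 8 members, the level was 20163 FPKM on noni and 14966 FPKM on control food, a ratio of 1.35. The sum made up 0.997% of all FPKM in the noni column and 0.694% in the control column. The difference between the sums was 5197 FPKM, of which *Vm26Aa* alone made up 51.2% and *Vm26Ab* 26.3%. Without *Vm26Aa*, the remaining 7 members summed to 8446 FPKM on noni and 5911 FPKM on control food, a ratio of 1.43.

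**Figure D1:**
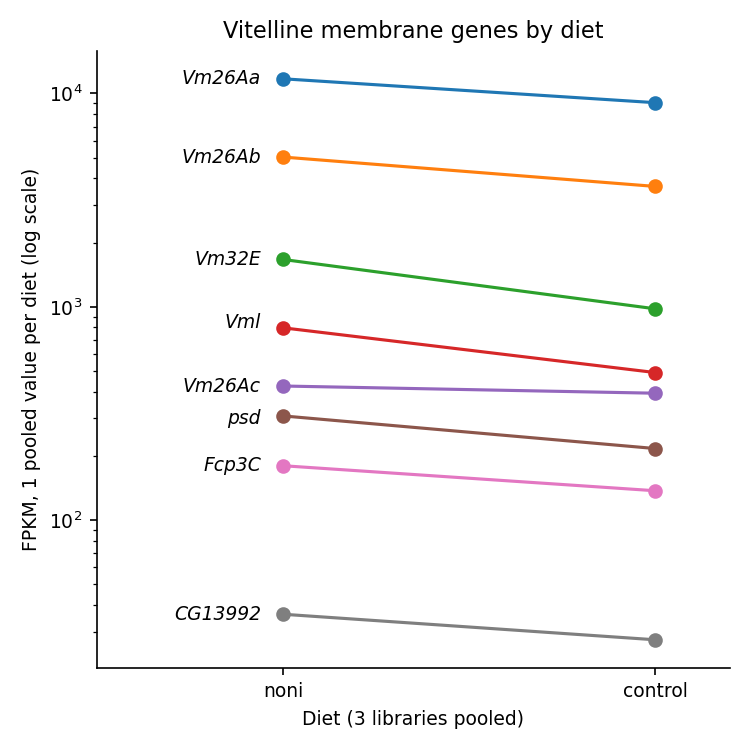
FPKM of the 8 vitelline membrane genes (vertical axis, log scale) on noni, left, and control food, right. Each point is 1 pooled value over 3 libraries, without error bars because no library value was used. Every line is higher at the noni end, the order of the genes is the same in both diets, and the line of *Vm26Ac* is the flattest.

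*Vm26Aa* and *Vm26Ab* encode major structural proteins of the layer. *Vm26Aa* (GM17983) was listed at 11717 FPKM on noni and 9055 FPKM on control food, a ratio of 1.29 and a log2 ratio of 0.37. It ranked 15 among all genes on noni and 24 on control food, so it was one of the most abundant RNAs of these females in both diets. The genes directly above and below it on noni were GM17639, with no ortholog listed, at 11961 FPKM, and GM10185, listed as *CG6503*, at 11655 FPKM. Orthologs were listed only for genes in the study's lists of responding genes, so a gene without one listed may still have one. The log2 ratios of GM17639 and GM10185 were 0.62 and 0.28, so the ratio of *Vm26Aa* stood between those of its neighbours in level. *Vm26Ab* (GM18584) was listed at 5034 FPKM on noni and 3666 FPKM on control food, with a log2 ratio of 0.46, and ranked 70 and 131. Both genes together carried 83.1% of the summed FPKM of the members on noni and 85.0% on control food. The level of *Vm26Aa* was 2.33 times that of *Vm26Ab* on noni and 2.47 times on control food.

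*Vm32E* (GM11107), another structural protein, which in *D. melanogaster* is also found in the layer just outside the vitelline membrane, had the highest ratio of the members. It was listed at 1666 FPKM on noni and 978 FPKM on control food, a ratio of 1.70 and a log2 ratio of 0.77. Among all genes kept, 3.42% had a higher log2 ratio. *Vm32E* was the member named through the list of genes responding to noni in these data, so its place among all genes is a description. Its share of the summed FPKM was 8.26% on noni and 6.54% on control food, the largest gain in share among the members.

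*Vm26Ac* (GM17984), which lies between *Vm26Ab* and *Vm26Aa* in the genome, differed least between the diets. It was listed at 425 FPKM on noni and 393 FPKM on control food, a ratio of 1.08 and a log2 ratio of 0.11. Of all genes, 41.6% had a higher log2 ratio, so its value was near the middle of the table. Its share of the summed FPKM was 2.11% on noni and 2.63% on control food. *Vm32E* stood at 3.92 times the level of *Vm26Ac* on noni and 2.49 times on control food, and the log2 ratios of these 2 genes differed by 0.66. Whether the members differ from one another beyond the spread between libraries was not tested.

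The remaining members are less abundant. *psd*, or palisade (GM17981), is needed in *D. melanogaster* for the vitelline bodies to form and for the layer to be cross-linked. It was listed at 308 FPKM on noni and 216 FPKM on control food, with a log2 ratio of 0.51. *Fcp3C* (GM18842), named as a follicle cell protein, was listed at 179.8 FPKM on noni and 137 FPKM on control food, with a log2 ratio of 0.39. *CG13992* (GM17980) was the least abundant member, at 36.2 FPKM on noni and 27.5 FPKM on control food, with a log2 ratio of 0.40. These 3 ratios, with those of *Vm26Aa* and *Vm26Ab*, lay between 0.37 and 0.51, although their levels differed by a factor of 324 on noni and 330 on control food between *Vm26Aa* and *CG13992*. The order of the 8 levels was the same in both diets.

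*Vml* (GM19220), a vitelline membrane-like protein that in *D. melanogaster* is a target of the sulfotransferase Pipe in dorsal-ventral patterning of the embryo, had the second-highest ratio. It was listed at 797 FPKM on noni and 492 FPKM on control food, a ratio of 1.62 and a log2 ratio of 0.70. The same locus field, scaffold 10 from 1955671 to 1957197, is also given for GM18892 and GM18893, which have no ortholog listed among the responding genes. The reads of 1 region may therefore have been divided among 3 gene models, and the value of each is uncertain. GM18892 was listed at 1115 FPKM on noni and 579 FPKM on control food, with a log2 ratio of 0.95. GM18893 was listed at 234 FPKM on noni and 90.4 FPKM on control food, with a log2 ratio of 1.37. All 3 models were higher on noni, and *Vml* had the lowest ratio of them. Together they came to 2146 FPKM on noni and 1161 FPKM on control food, a ratio of 1.85 and a log2 ratio of 0.89, above that of every member. The part of the summed level given to *Vml* was 37.1% on noni and 42.4% on control food. No other member shared its locus field with another gene.

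**Figure D2:**
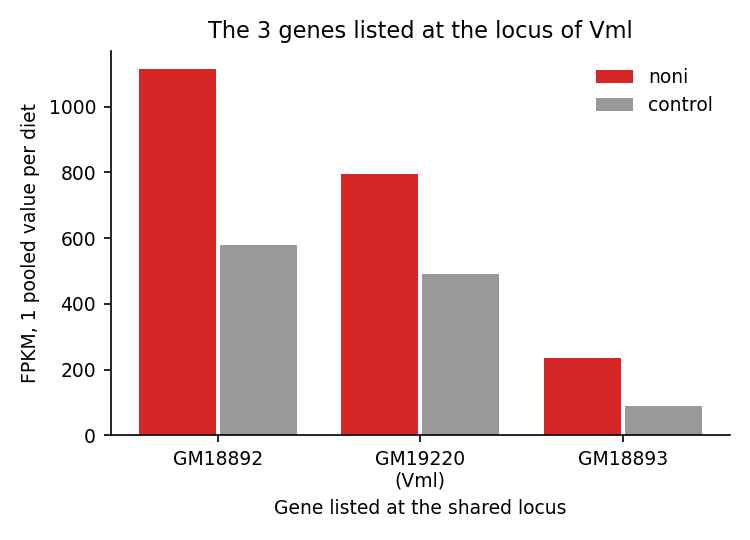
FPKM (vertical axis) of the 3 gene models listed at the locus of *Vml*, with the noni value in red left of the control value in grey, each pooled over 3 libraries. All 3 models are higher on noni: GM18892 at 1115 against 579 FPKM, *Vml* at 797 against 492 FPKM and GM18893 at 234 against 90.4 FPKM.

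Genes that averaged at least 100 FPKM were more often lower than higher on noni, and the members stood further apart from them than from all genes. This set has no upper limit, so it is not matched in level to *Vm26Aa*, *Vm26Ab* and *Vm32E*, which averaged 10386, 4350 and 1322 FPKM. The genes directly above and below *Vm26Aa* on noni were both higher on noni, with log2 ratios of 0.62 and 0.28. The set also holds rRNA genes, many of them lower on noni, and was not recomputed without them. Of 2198 genes that averaged 100 FPKM or more, 44.6% were higher on noni, their median log2 ratio was -0.04, 12% were at least 25% higher and 3.73% reached a ratio of 1.5. All members except *CG13992* belong to these genes, and of those 7 members 6 were at least 25% higher and 2 reached a ratio of 1.5. Among them, 2.18% had a higher log2 ratio than *Vm32E*, 2.68% a higher one than *Vml*, 9.55% a higher one than *Vm26Aa* and 30.5% a higher one than *Vm26Ac*. The same held for short genes. Of 429 genes with this mean and a locus of 300 to 600 nt, a length range chosen after the values were seen and in which the 3 *Vm26A* genes and *Vm32E* fall, 39.2% were higher on noni, 9.79% were at least 25% higher, 3.26% reached a ratio of 1.5 and the median log2 ratio was -0.06. Of the 4 members among them 3 were at least 25% higher and 1 reached a ratio of 1.5. Genes are not independent replicates, and several members are neighbours, so these shares are a description.

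**Figure D3:**
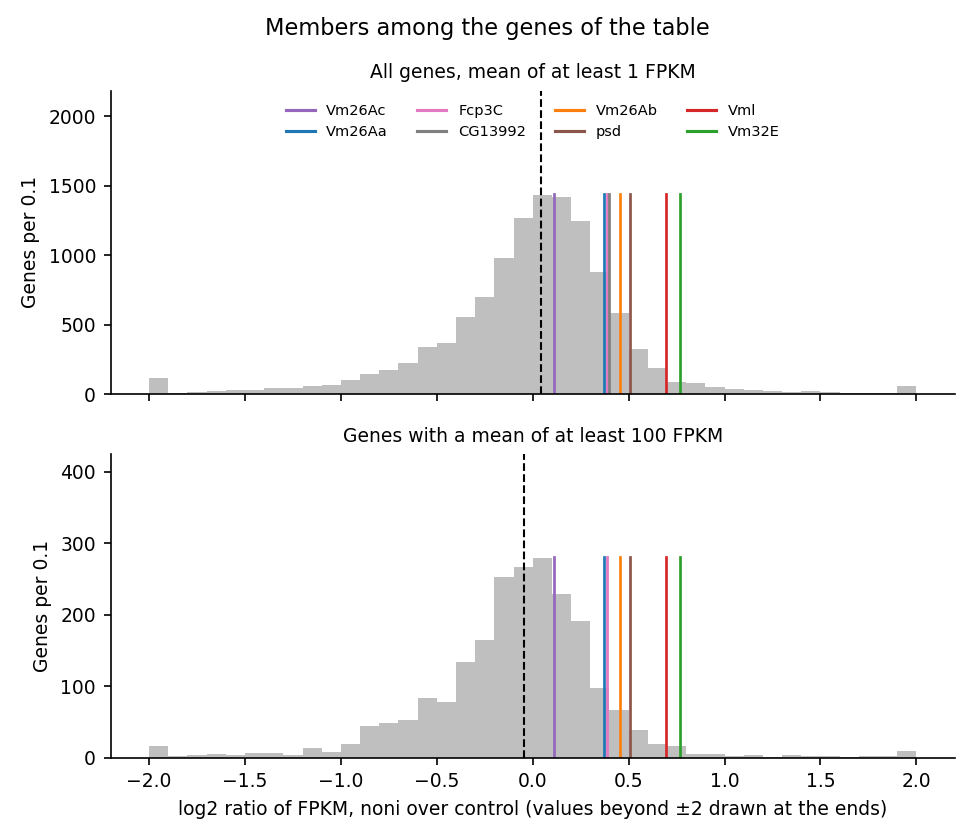
Number of genes per 0.1 of the log2 ratio of FPKM, noni over control (grey bars), for the 11860 genes that averaged 1 FPKM or more (top) and for the 2198 genes with at least 100 FPKM (bottom). Coloured lines mark the members, without *CG13992* in the lower panel, and the dashed line marks the median of the genes, 0.04 and -0.04. All members lie right of both medians, with *Vm26Ac* closest to them and *Vml* and *Vm32E* farthest out.

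Positions on the genome build dsec_caf1 place 5 of the members in 1 cluster on scaffold 5, which spans 10702 nt. The order along the scaffold was *Vm26Ab* (4027755 to 4028261), *Vm26Ac* (4028820 to 4029329), *Vm26Aa* (4030652 to 4031077), *psd* (4034211 to 4035227) and *CG13992* (4036489 to 4038456). The gaps between them were 558, 1322, 3133 and 1261 nt. Log2 ratios inside the cluster ran between 0.11 and 0.51, with a median of 0.40. Outside it, *Vm32E* lies on scaffold 3 from 6572521 to 6572877, and *Fcp3C* on scaffold 10 from 2796802 to 2797705, apart from *Vml* on the same scaffold. The 3 members outside the cluster had log2 ratios of 0.77, 0.39 and 0.70, and their summed level had a ratio of 1.64, against 1.31 for the 5 in the cluster. Of these 3, *Fcp3C* (0.39) was close to the cluster median of 0.40, and the value of *Vml* is uncertain. The difference between the 2 sums was not tested. Loci had a length that is a multiple of 3 for 7 of the 8 members, all but *Fcp3C*, against 47.5% of all genes, a property of coding sequence without introns. For *Vml* the length is that of the locus field shared by 3 gene models, and need not be that of its own coding sequence. The file does not give exons, introns or UTRs, and levels per length depend on these models.

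**Figure D4:**
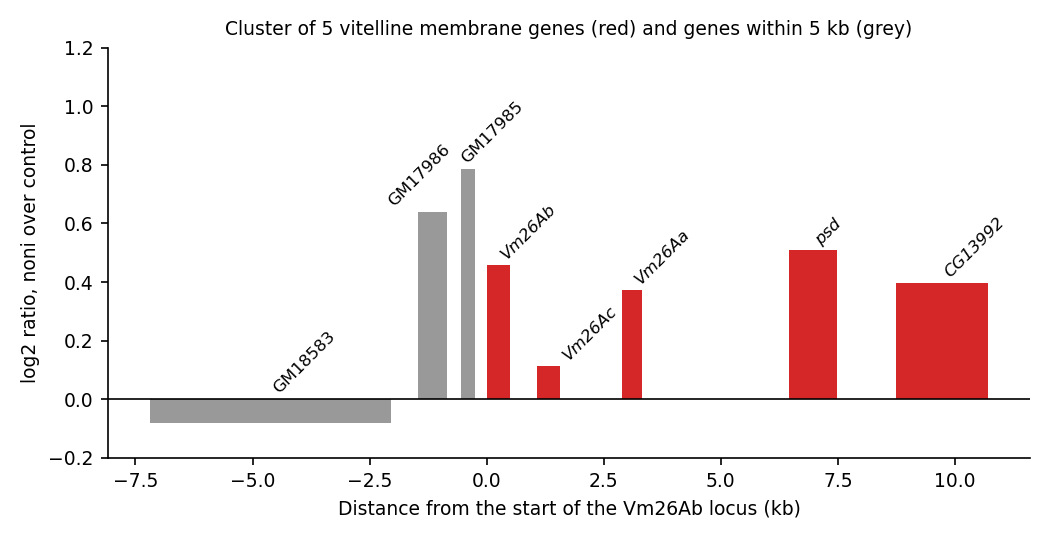
Log2 ratio of FPKM, noni over control (vertical axis), along the cluster on scaffold 5, with the distance from the start of the *Vm26Ab* locus in kb on the horizontal axis and bars as wide as each locus. Red bars are the 5 vitelline membrane genes, between 0.11 and 0.51, and grey bars are other genes within 5 kb, without GM18585 and GM18586, which are listed at 0 FPKM in one diet. GM17985 and GM17986, left of *Vm26Ab*, have higher bars than any of the 5.

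Within 5 kb of a member, 13 other genes were listed, of which 11 had at least 1 FPKM on average, 8 of them higher on noni and 3 lower. Without GM18892 and GM18893, which share the locus of *Vml*, 6 of 9 were higher, against 55.1% of all genes. Next to *Vm26Ab*, GM17985 was listed at 42.8 FPKM on noni and 24.8 FPKM on control food (log2 ratio 0.79), and GM17986 at 6.38 FPKM on noni and 4.10 FPKM on control food (0.64). Both have no ortholog listed among the responding genes, and both ratios were higher than those of the 5 cluster members. On the same side but farther out, GM18583 had a log2 ratio of -0.08. Past *CG13992*, GM18585 and GM18586 were listed below 1 FPKM in both diets. GM11112, listed as *Ca-beta*, lies 723 nt from *Vm32E* and had a log2 ratio of -0.73, opposite in direction to *Vm32E*. Around *Fcp3C*, GM18843 (0.22) and GM19264 (0.02) were slightly higher on noni, and GM19265, listed as *CG3939*, was lower (-0.48). Around the locus of *Vml*, GM18894 and GM18891 had log2 ratios of 0.34 and 0.13, below that of *Vml*.

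Other egg genes put these values in context, taken from lists by name. Chorion genes, which form the outer eggshell later in the same follicle cells, were matched for 13 of 15 names. All 13 were higher on noni, 10 of them at least 1.5-fold, against 55.1% and 5.96% of all genes. All 13 were named through the study's lists of responding genes, noni among them, so responders were more likely to be counted. The median log2 ratio of the 13 chorion genes was 1.76, and 10 of the 13 had a higher ratio than any vitelline membrane gene. Those within the range of the vitelline membrane genes were *Cp15* (0.33), *yellow-g* (0.35) and *yellow-g2* (0.36). Of these, *yellow-g* and *yellow-g2* are not named as chorion genes but were counted in this list. The highest were *Mur11Da* (2.97) and *Cp18* (2.95). The summed level of the 8 members was 0.948 times that of the 9 chorion genes *Cp7Fa*, *Cp7Fb*, *Cp7Fc*, *Cp36*, *Cp38*, *Cp15*, *Cp16*, *Cp18* and *Cp19* on noni and 1.69 times on control food. The yolk protein genes *Yp1* and *Yp2* had log2 ratios of 0.83 and 0.72, and the members summed to 0.481 times their level on noni and 0.612 times on control food. These differences between lists were not tested.

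**Figure D5:**
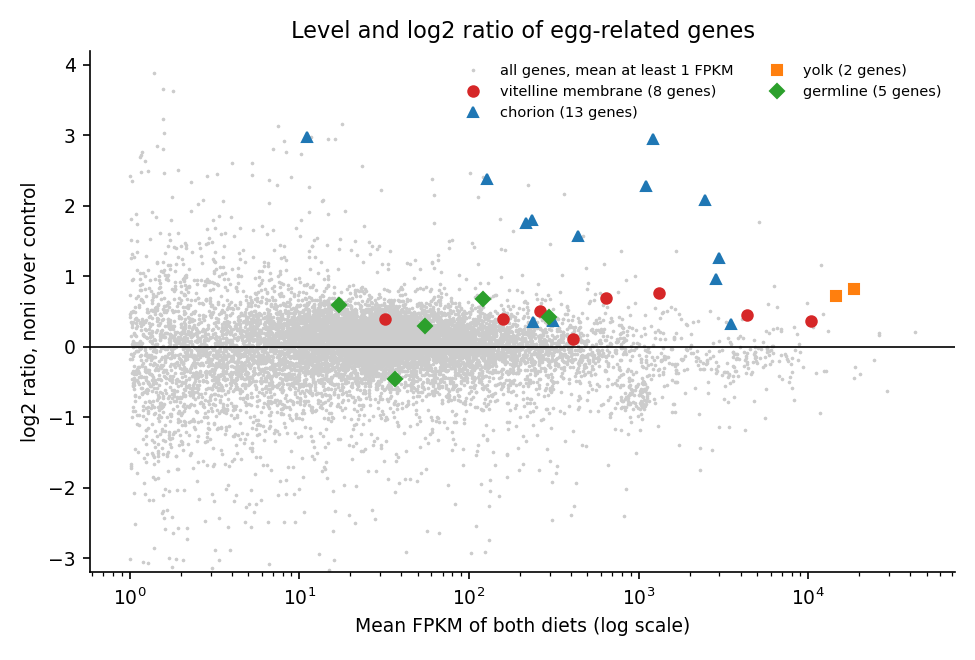
Log2 ratio of FPKM, noni over control (vertical axis), against the mean FPKM of both diets (horizontal axis, log scale), with 1 pooled value per diet behind each point. Red circles are the 8 vitelline membrane genes, blue triangles 13 chorion genes, orange squares 2 yolk protein genes, green diamonds 5 germline genes and grey dots all genes that averaged 1 FPKM or more, of which 21 lie outside the plotted range. The vitelline membrane genes lie between 0.11 and 0.77, below 10 of the 13 chorion genes.

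Of 14 names for genes that act with the vitelline membrane, such as its cross-linking enzymes and the patterning proteins that bind to it, 2 were matched. The unmatched names include *Vm34Ca*, itself named as a vitelline membrane gene, so the members need not be the complete family. *ndl* (GM13834), a protease made by follicle cells that starts the dorsal-ventral signal and is also needed for a sound vitelline membrane, was listed at 34.5 FPKM on noni and 21.7 FPKM on control food, a log2 ratio of 0.67. *wbl* (GM21940), which is needed for the activity of Pipe, had a log2 ratio of 0.03. Of 10 regulators of follicle cells, *tj* alone was matched, and its log2 ratio was 0.02. Germline genes were matched for 5 of 11 names, with 4 higher on noni and 1 lower, where 55.1% of all genes were higher. Of these, *otu*, *aub* and *piwi* were named through the lists of responding genes. The 5 log2 ratios ran between -0.45 for *aub* and 0.68 for *otu*, also including *bcd* (0.59). Their median of 0.43 was close to that of the vitelline membrane genes, but it rests on these 5 genes.

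Markers of other tissues were matched only in part and did not share a direction. Of the 4 gut names 3 were matched, and all were lower on noni, as were 5321 of the 11860 genes kept. Their log2 ratios were -1.67 for *Mal-A1*, -1.41 for *alphaTry* and -0.54 for *Amy-p*. *alphaTry* and the fat body genes below were named through the lists of responding genes. The fat body genes *Lsp2* and *Fbp1*, 2 of 4 names, had log2 ratios of 2.47 and -0.37. *Mlc1*, the one muscle gene matched of 6 names, had 0.08, and the male genes *Acp26Aa* and *Acp70A* were listed at 0 FPKM in both diets, while no neuron or photoreceptor name was matched. Their part in the values of the vitelline membrane genes was not tested.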

How the data were processed

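RNA-seq of whole females was available for 3 noni and 3 control libraries, with groups taken from the labels. The authors used FastQC for read quality, Bowtie2 for mapping (build dsec_caf1) and Cuffdiff with the Ensembl annotation for quantification; tool versions are not given in the sources used here. The deposited FPKM values come from Cuffdiff, which normalized libraries geometrically and corrected for sequence bias, and each pools the libraries of a diet. The columns of the authors' own comparison (log ratio, test statistic, p-value, q-value and call) were not used.

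Genes above 0 FPKM in both diets with a mean of at least 1 FPKM were kept, and log2(noni/control) was computed without a pseudocount. Ratios of at least 1.5 were counted. The calculation was tested on simulated data. Python 3.11.15, numpy 2.4.6, pandas 2.3.3 and matplotlib 3.10.9 were used. Locus starts count from 0 in the file and are given counted from 1.

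*D. melanogaster* names came from the gene column or the ortholog columns of the study's tables of responding genes, for the members those of L-DOPA (6 genes), OA (1) and noni (1), so named genes are more often responders. IDs did not match the RefSeq gene table given. Named genes were the members, genes within 5 kb of them, the extremes and genes past 1.5-fold of each list (at most 10), and the neighbours in level of *Vm26Aa*. The male list used *Acp70A* for *SP*. *yellow-g* and *yellow-g2* were named after their values had been seen. No protein sequence was used, so the planned search for a shared cysteine spacing was not run. The members and lists were chosen with earlier results of these data known.

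Alternatives were 1 or 10 FPKM added to both values, centring on the median, rescaling each diet to a sum of 1000000 (TPM) with or without rRNA and snoRNA genes, other minimum levels, loci counted once, and a threshold of 25% or 2-fold. Treating *Vml* as the sum at its locus or leaving it out, and the set of short genes, were added after the values had been seen. Models on libraries and leaving out libraries could not be run on pooled values.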

Additional observations from a re-analysis of the deposited data

How the results depend on the processing

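Over 41 recomputed log2 ratios of single members, 0 reversed, and they ran between 0.07 (*Vm26Ac*, centred on the median of all genes) and 0.89 (*Vml* as the sum at its locus). Adding the same FPKM to both values cannot change the direction of a ratio. Rescaling each diet shifted every log2 ratio by 0.07 or 0.09. Centring shifted each by -0.04, less than the lowest member ratio of 0.11. These alternatives could therefore not reverse a member, and the lack of reversals is no check of direction. The number of members at least 1.5-fold higher on noni, 2, became 7 at 25% higher, 0 at 2-fold and, chosen after the values were seen, 1 without *Vml*; it was 3 with each diet rescaled to a sum of 1000000 (TPM), which brought *psd* to 0.60 and the share of all genes past this fold to 8.52%, against 5.96% as reported. The median log2 ratio of the members stayed between 0.38 and 0.52, and the log2 ratio of the summed level between 0.42 and 0.52. Rescaling to TPM shifted the median of all genes by 0.09. Of 25 list medians recomputed, 0 reversed, which has the same limit. With 10 FPKM added to both values the median of the chorion genes was 1.54. No paired analysis was possible because only pooled values were deposited in the table used, and for the same reason no library could be left out. Depth limits could not be set, as no read counts were used.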

Other observations

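Locus fields given for more than 1 gene, as at *Vml*, were not rare in the table. In all, 1517 genes share their locus field with another gene, and at 269 loci at least 2 such genes had a mean of at least 1 FPKM. The range of log2 ratios within these loci had a median of 0.50, and at the locus of *Vml* it was 0.67, exceeded at 37.9% of them. Among the 36 loci with exactly 3 such genes the median range was 0.64.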
